A study of Mus musculus with 6 samples.

Results

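The genes described here encode the subunits of voltage-gated calcium and sodium channels. They were taken as all genes whose symbol starts with Cacna, Cacnb, Cacng or Scn followed by a digit, a choice made by name and not by any measured value. Of 19401 genes listed in at least 1 library, 38 were of this kind. A further 2 genes of the same naming in RefSeq (GRCm38.p6), Cacng6 and Scn10a, were listed in no library. The count minimum, at least 10 counts in at least 3 libraries, was passed by 36 of the 38, and Cacng1 and Scn11a did not pass it. The members fall into 8 classes: 4 L-type pores, 3 P/Q-, N- and R-type pores, 3 T-type pores, 4 alpha2delta subunits, 4 calcium channel beta subunits, 7 gamma subunits, 9 sodium channel alpha subunits and 4 sodium channel beta subunits.

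A voltage-gated calcium channel opens when the membrane depolarizes and lets calcium in. Its pore is the alpha1 subunit (genes Cacna1a to Cacna1s), and high-voltage pores carry a cytoplasmic beta subunit and an extracellular alpha2delta subunit that bring the channel to the membrane and tune its gating. In photoreceptors, calcium enters the ribbon synapse through L-type channels built around Cacna1f, and loss of this pore, of Cacna2d4 or of Cacnb2 impairs transmission to bipolar cells. Most proteins named gamma are transmembrane AMPA receptor regulatory proteins (TARPs), which traffic glutamate receptors. Sodium channel alpha subunits carry the action potential of ganglion cells and some amacrine cells, with beta subunits as partners.

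Retinal RNAseq compared 3 libraries of control and 3 libraries of efavirenz-treated (EFV) mice. All mice carried the 5XFAD transgenes, mutant human amyloid precursor protein and presenilin 1 driven in neurons by the Thy1 promoter, on a B6SJL background, so no library represents a retina without these transgenes. They are described as males. EFV is an anti-HIV drug that, at a small dose, activates the cholesterol hydroxylase CYP46A1. It was given in drinking water from 3 to 9 months of age, at 0.08 mg/kg by the sample labels, and tissue was taken at 9 months. The dose in the paper's methods is slightly different. Each library pools retina plus retinal pigment epithelium (RPE) of 5 to 6 mice, so errors below describe how pools, not single mice, vary. The question addressed here is whether EFV changed the RNA of these channel subunits.

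Libraries held between 23455167 and 24590278 expected counts, of which the 38 genes took 0.283%. Markers of the retina were abundant, with a summed level of 23809 to 25545 FPKM (reads scaled to transcript length and library total) over 7 rod markers. Control library 3 stood apart for lens RNA: the 10 lens markers summed to 2285 FPKM there and to between 20.9 and 112 FPKM in the other libraries. Control library 2 was lowest in RPE RNA, with 28.7 FPKM summed over 8 markers against 50.4 to 64.6 FPKM elsewhere. Among the 36 tested subunit genes, 12 were highest in control library 2 and 12 in EFV library 3, each 33.3% of them, against 18.1% and 19% of all genes tested. Whether lens or RPE tissue had a part in any value below was not tested, and the counts of members past a threshold, the members' median, the fold changes of the genes singled out and the class sums were also taken without each library in turn.

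Sequence features set the members of a class apart and are shown for the genes on which the levels and the comparison turn. The alpha interaction domain is the stretch of the cytoplasmic linker between the first and the second repeat of a high-voltage pore that the beta subunit grips. A search of the annotated coding transcripts for the domain's conserved residues, in the 3 forward frames, found it in 7 of 21877 genes (0.032%), and these were the 7 high-voltage pores. The T-type pores Cacna1g, Cacna1h and Cacna1i had no match. The 54 bases are given 5′ to 3′ on the coding strand (mm10), with the codons of the conserved residues in capitals. They are shown for the most abundant L-type pore and for both P/Q- and R-type pores. Also shown is the 1 pore past the limits of the study when these are applied to the test used here.
Cacna1f: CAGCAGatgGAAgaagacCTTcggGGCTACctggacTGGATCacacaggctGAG
Cacna1c: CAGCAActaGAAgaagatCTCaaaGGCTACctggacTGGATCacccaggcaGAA
Cacna1a: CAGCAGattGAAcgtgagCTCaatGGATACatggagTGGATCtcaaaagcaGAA
Cacna1e: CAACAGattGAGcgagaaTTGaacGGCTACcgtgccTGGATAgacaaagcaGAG
In Cacna1f they lie in exon 9, at chrX:7613861-7613914 on the plus strand. In Cacna1c they lie in exon 9, at chr6:118734906-118734959 on the minus strand. In Cacna1a and Cacna1e an intron splits them between exons 8 and 9, so that they span chr8:84536125-84536403 on the plus strand and chr1:154488837-154493353 on the minus strand. Cacna1f shared 43 of the 54 bases with Cacna1c, 37 with Cacna1a and 33 with Cacna1e.

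The inactivation particle, a short hydrophobic motif in the linker between the third and the fourth repeat, closes a sodium channel within milliseconds of opening. The same transcripts and frames were searched for IFMTEE, the motif IFM with the residues TEE that follow it. This string matched 9 of the 10 sodium channel alpha genes, Scn10a included, and 1 further gene, Mtus2. Whether the Mtus2 match lies in its coding frame was not checked. Scn7a, which encodes the sodium-sensing channel Nax, had no match to the whole string, and IFM alone was not searched. The codons of the motif are in capitals within 36 bases, shown for the most abundant alpha gene.
Scn8a: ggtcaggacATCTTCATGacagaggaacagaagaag
They lie in exon 25, at chr15:101033484-101033519 on the plus strand. RSEM, which made the counts, divides a read that maps to several genes among them, and the counts then need not be whole. Of the 38 members, 9 had a count more than 0.005 from a whole number in at least 1 library: Scn1a, Scn2a, Scn3a, Scn9a, Scn2b, Cacna1d, Cacna1h, Cacnb3 and Cacng4. For Scn2b this was a departure of 0.01 in 1 library. Which genes shared reads was not tested, and the values of these genes are uncertain to that extent.

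By FPKM, 1 gene made up most of the calcium channel pore RNA, and its share by counts was not computed. Cacna1f, the pore of the photoreceptor channel Cav1.4, had 68.1, 72.5 and 69.0 FPKM in control libraries 1, 2 and 3 and 68.7, 72.8 and 73.9 FPKM in EFV libraries 1, 2 and 3. These levels overlapped, and they placed the gene at the 95th percentile of all genes tested. Cacna1f made up 84.0% ± 0.817 (SD, n = 3) of the summed L-type FPKM in control and 84.4% ± 1.16 (SD, n = 3) in EFV libraries. Over all 10 calcium channel pores its share was 52.1% ± 1.00 in control and 52.3% ± 0.757 in EFV libraries (SD, n = 3 each). The other L-type pores were much lower. Cacna1s, the skeletal muscle pore, had a mean of 6.18 FPKM and Cacna1d, the pore of Cav1.3 in neurons and hair cells, of 5.99 FPKM, and their ranges over the 6 libraries overlapped. Cacna1c, the pore of Cav1.2 in heart, vessels and neurons, had a mean of 1.12 FPKM and stood at the 17.6th percentile in control.

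**Figure D1:**
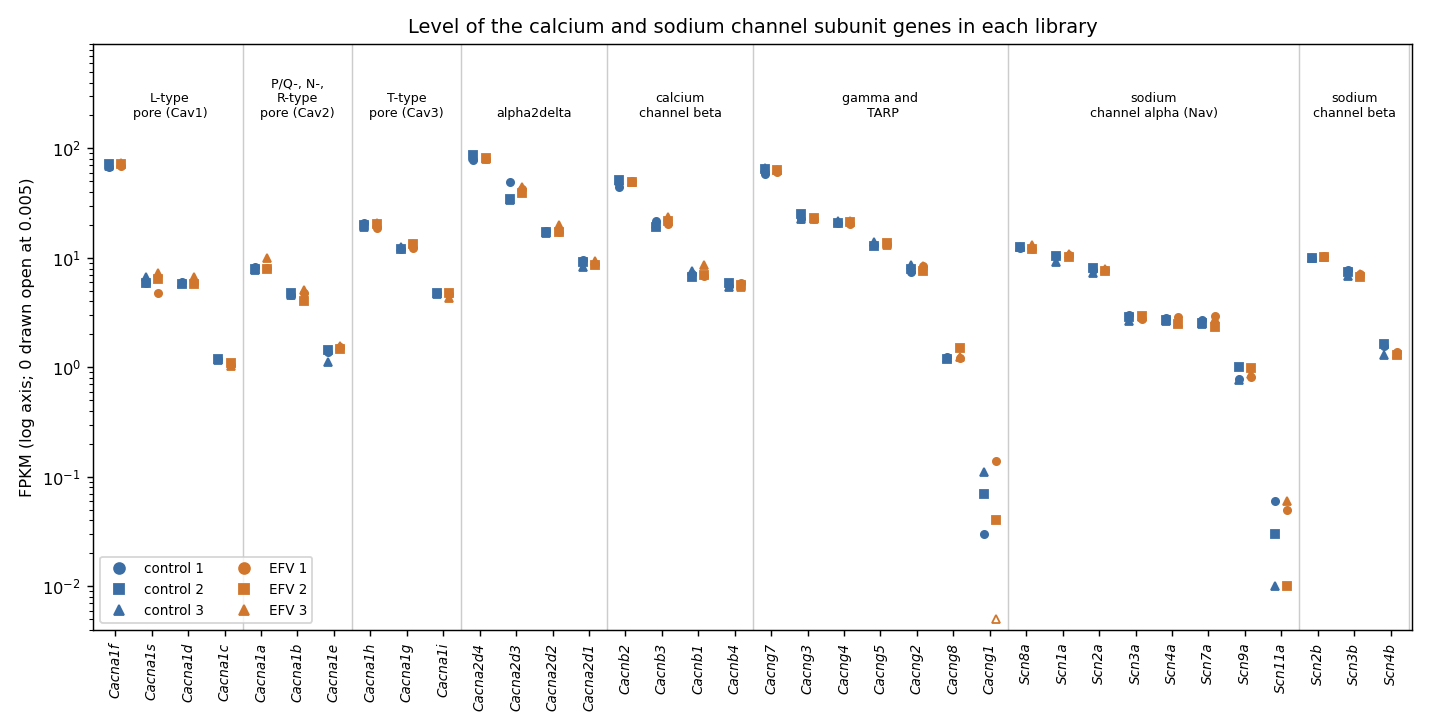
FPKM of 36 of the 38 genes in each library (log axis), grouped by class and ordered within a class by mean level, with blue symbols for control and orange symbols for EFV libraries. Cacna2d4, Cacna1f and Cacng7 lie highest, above 58 FPKM in every library, and Cacng1 and Scn11a lie lowest, at or under 0.14 FPKM.

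The Cacna1s transcripts were read in a tissue with little skeletal muscle RNA. The 9 skeletal muscle markers summed to 5.72 to 7.05 FPKM in control and 7.11 to 8.24 FPKM in EFV libraries. Of these markers, Mylpf was at 2.40 to 3.21, Ckm at 1.82 to 2.30 and Acta1 at 1.08 to 2.21 FPKM. Tnnt3, Tnnc2 and Actn3 were at 0.06 to 0.38 FPKM, and the myosin genes Myh1, Myh2 and Myh4 at 0 to 0.03 FPKM. The sums of the groups did not overlap. All 3 markers tested were higher in EFV libraries, and 0 passed the limits of the study. The part of muscle RNA in the Cacna1s value was not tested. Cacna1s had 5.96, 5.87 and 6.72 FPKM in control and 4.79, 6.48 and 7.28 FPKM in EFV libraries, so that EFV library 1 was lowest and EFV library 3 highest. Annotated exons of an antisense gene, Gm37759, cover 20% of its exon bases, and since strandedness is not stated, reads of both cannot be told apart. The sodium channel of skeletal muscle, Scn4a, was at 2.48 to 2.90 FPKM.

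Pores of the presynaptic and low-voltage classes were ordered without overlap between neighbours. Cacna1a, the P/Q-type pore, had a mean of 8.31 FPKM, Cacna1b, the N-type pore, 4.64 FPKM and Cacna1e, the R-type pore, 1.42 FPKM. T-type pores open at small depolarizations. Among them Cacna1h had a mean of 19.9 FPKM, Cacna1g 12.7 FPKM and Cacna1i 4.66 FPKM. Cacna1h made up 54% ± 1.09 of the class in control and 52.9% ± 0.812 in EFV libraries (SD, n = 3 each). The whole T-type class, at 36.9 ± 0.537 FPKM (SD, n = 3) in control, was the second pore class after the L-type, at 83.1 ± 2.06 FPKM (SD, n = 3).

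Cacna2d4, the alpha2delta subunit of the photoreceptor channel, was the most abundant of the 38 genes, with 78.6, 87.1 and 82.9 FPKM in control and 79.3, 81.7 and 80.3 FPKM in EFV libraries. All EFV values lay within the control range. Cacna2d3 came next, at 49.3, 34.3 and 33.6 FPKM in control and 42.4, 39.6 and 44.6 FPKM in EFV libraries, with control library 1 highest. Cacna2d2, at a mean of 17.7 FPKM, and Cacna2d1, at 8.99 FPKM, were lower. Mean FPKM of Cacna2d4 was 2.01 times that of Cacna2d3, although its counts were far higher, 11118 to 11750 against 1161 to 1664. FPKM is scaled to transcript length. The length listed for Cacna2d3 was 1431 to 1523 bases, against 3695 bases for the annotated transcript with its RefSeq identifier. The listed length was under 80% of the shortest such annotated transcript for 6 members (Cacna2d3, Cacng3, Cacna1e, Cacna1s, Scn2a and Scn4a), and FPKM comparisons between these and other genes carry that difference.

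Among the beta subunits, Cacnb2, the partner of Cacna1f in photoreceptors, had 44.3, 51.5 and 50 FPKM in control and 50.1, 49.6 and 49.8 FPKM in EFV libraries. Control library 1 was the lowest and the EFV values lay within the control range. Cacnb2 took 59.4% ± 2.81 of the beta class in control and 58.8% ± 1.53 in EFV libraries (SD, n = 3 each). Cacnb3 had a mean of 21.1 FPKM, Cacnb1 of 7.30 FPKM and Cacnb4 of 5.63 FPKM. The exons of A430018G15Rik on the opposite strand overlap 16% of the Cacnb4 exon bases. Apart from Cacna1s and Cacnb4, no single other gene covered more than 5.86% of a member's exon bases.

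Of the gamma class, Cacng7, a type II TARP, had 58.1, 65.3 and 66.6 FPKM in control and 61.4, 63.0 and 63.6 FPKM in EFV libraries. The type I TARPs Cacng3 and Cacng4 followed at means of 23.2 and 21.1 FPKM. Cacng5 had a mean of 13.4 FPKM and Cacng2, known as stargazin, of 8.09 FPKM. Cacng8 was low, at a mean of 1.27 FPKM. Cacng1, the gamma subunit of the skeletal muscle channel, had at most 4 counts per library and was not listed in EFV library 3, where it was taken as 0.

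The sodium channel alpha class was led by 3 genes of central neurons. Scn8a, the alpha subunit of Nav1.6 at the axon initial segment, had 12.2, 12.7 and 12.6 FPKM in control and 12.2, 12.1 and 13.1 FPKM in EFV libraries. Scn1a had a mean of 10.3 FPKM and Scn2a of 7.74 FPKM. Scn8a made up 31.3% ± 1.41 of the class in control and 30.7% ± 0.854 in EFV libraries (SD, n = 3 each). Scn3a, Scn4a and Scn7a followed at 2.86, 2.69 and 2.64 FPKM, with overlapping ranges between neighbours. Scn9a had a mean of 0.872 FPKM. Scn11a, a channel of pain-sensing neurons, had 1 to 9 counts per library. For Scn9a the listed length varied between 5977 and 8334 bases across libraries, so its FPKM ranged from 0.760 to 1.01 while its counts stayed between 142 and 164.

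Of the sodium channel beta subunits, which are adhesion proteins as well as channel partners, Scn2b, Scn3b and Scn4b had means of 10.1, 7.15 and 1.42 FPKM, with no overlap between neighbours. Scn2b had 9.99, 10.1 and 9.91 FPKM in control and 10.4, 10.3 and 10.2 FPKM in EFV libraries, higher without overlap. Its scaled counts overlapped, with a log2 fold change of 0.02 (SE 0.046, unadjusted edgeR p of 0.625).

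Summed by class, the RNA of EFV and control libraries overlapped in each of the 7 classes summed. The L-type class summed to 83.1 ± 2.06 FPKM in control and 85.1 ± 4.35 FPKM in EFV libraries (SD, n = 3 each, exact two-sided permutation test, p = 0.6). The beta class came closest to a difference, at 81.8 ± 2.62 and 84.7 ± 2.10 FPKM (SD, n = 3 each, exact permutation p = 0.3). In the other classes the exact permutation p was between 0.5 and 1. With 3 libraries against 3, this test cannot give a p under 0.1. Bulk RNA cannot tell fewer cells of a type from less RNA per cell.

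**Figure D2:**
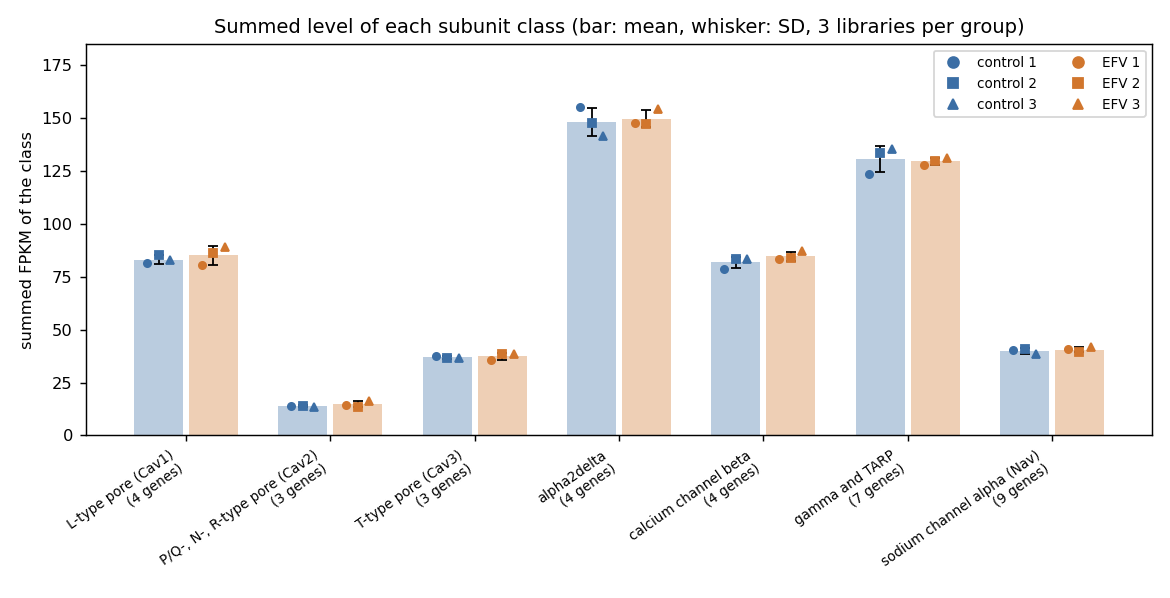
Summed FPKM of each subunit class, with bars for the mean and whiskers for the SD of 3 control (blue) or 3 EFV (orange) libraries and a symbol for each library. The means of the groups differ by at most 2.94 FPKM, in the calcium channel beta class, and the symbols of both groups overlap in all 7 classes shown.

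No subunit gene differed between EFV and control libraries after correction. By edgeR's quasi-likelihood test with Benjamini-Hochberg adjustment over 15537 genes, 0 of 36 members and 0 genes in all (0.0%) passed an adjusted p of 0.05, and the adjusted p of every member was 0.999. An unadjusted p of at most 0.05 was reached by 1 member and by 472 genes. At an adjusted p of 0.05, DESeq2 also called 0 members, with 11 genes in all. The limits used by the study are an unadjusted p of 0.05 and a level at least 7% higher in the one group than in the other. Applied here to the edgeR test, they were passed by 1 of 36 members (2.78%) and by 467 of the 15537 genes (3.01%). The members' share was thus near the background. That member, Cacna1c, was lower in EFV libraries, as were 239 of all genes (1.54%). Past the same limits and higher were 0 members and 228 genes (1.47%). The study set these limits on a different test, based on the Poisson distribution, and its own list of changed genes names no member, Cacna1c included.

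Cacna1c had 1.2, 1.19 and 1.17 FPKM in control libraries 1, 2 and 3 and 1.06, 1.09 and 1.04 FPKM in EFV libraries 1, 2 and 3. All EFV values lay below all control values. Its expected counts were 385 ± 10.8 in control and 345.7 ± 9.71 in EFV libraries (SD, n = 3 each). The EFV level was 0.881 times the control level, with a 95% interval of 0.791 to 0.981 (log2 fold change -0.18, SE 0.069). The unadjusted p of edgeR was 0.0258 and the adjusted p 0.999. The unadjusted p rose to 0.0648 without control library 1, 0.0645 without control library 2, 0.0596 without EFV library 1 and 0.0700 without EFV library 3, and it was 0.115 by DESeq2. In scaled counts, Cacna1c was the only member whose groups did not overlap, 1 of 36 (2.78%), against 1264 of 15537 genes (8.14%). In FPKM the groups of Scn2b and Cacna1e did not overlap either, both being higher in EFV libraries. The share of all genes without overlap was not counted in FPKM. Smooth and cardiac muscle, which use Cacna1c, left little RNA: the 7 markers summed to 4.99 to 8.16 FPKM in control and 4.42 to 5.96 FPKM in EFV libraries, with control library 3 highest. Of the 5 markers tested, 3 were above and 2 below 0, with a median log2 fold change of 0.22. Past the limits of the study was 1, Tnni3, a cardiac troponin, which was lower in EFV libraries (unadjusted edgeR p of 0.0152), while Tnnt2, another cardiac troponin, had a log2 fold change of 0.22. The part of muscle RNA in the Cacna1c value was not tested.

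**Figure D3:**
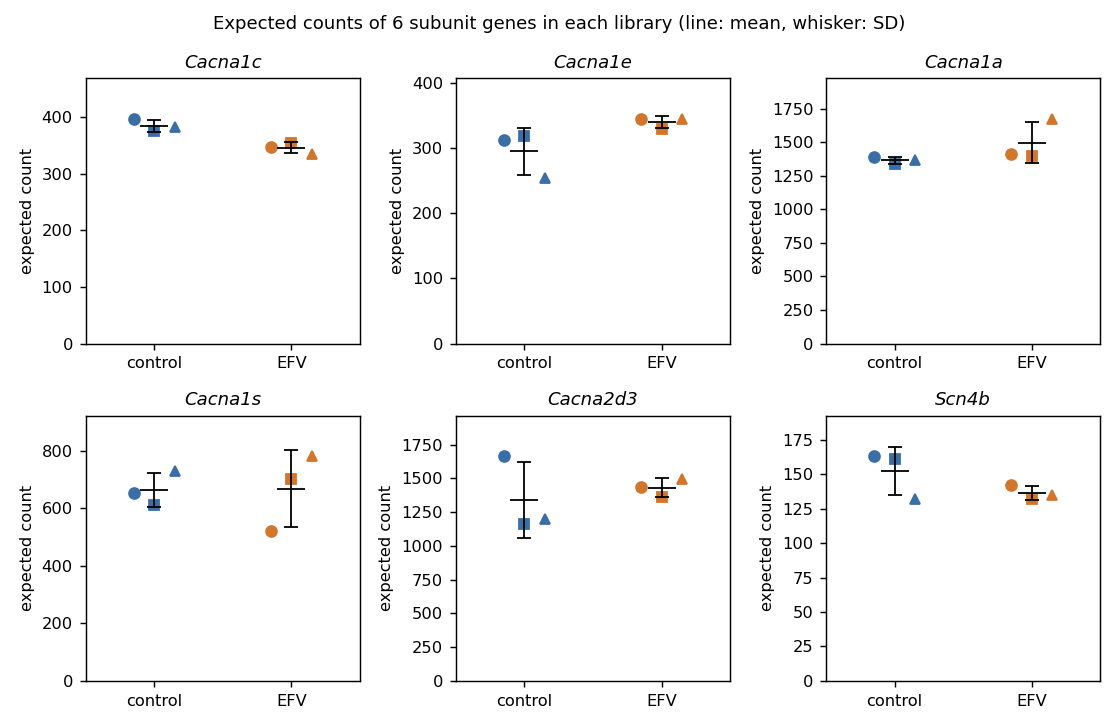
Expected counts of 6 subunit genes in each control (blue) and EFV (orange) library, circles, squares and triangles standing for libraries 1, 2 and 3, with the mean as a line and the SD as whiskers. The Cacna1c groups are apart, Cacna1a is high in EFV library 3, and Cacna2d3 is high in control library 1.

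Both P/Q- and R-type pores had higher means in EFV libraries, and neither passed the test. Cacna1e had 313, 318 and 254 counts in control and 345, 330 and 345 counts in EFV libraries. Counts did not overlap, but after scaling control library 2, at 3.79 on the log2 scale of scaled counts, lay above EFV library 2, at 3.78. Its log2 fold change was 0.17 (SE 0.104, 95% interval -0.06 to 0.41), with an unadjusted edgeR p of 0.128. Without control library 2 the log2 fold change was 0.26 and Cacna1e passed the limits of the study, and without control library 3 it was 0.07. Cacna1a had 1391, 1337 and 1366 counts in control and 1416, 1401 and 1674 counts in EFV libraries, EFV library 3 standing above the others. Its log2 fold change was 0.11 (SE 0.069) with an unadjusted edgeR p of 0.160, and 0.02 without EFV library 3. Cacna1b, the third gene of this class, had a log2 fold change of -0.03.

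Scn4b, the sodium channel beta subunit of resurgent current, had the lowest log2 fold change, -0.19 (SE 0.133, unadjusted edgeR p of 0.194), with 163, 161 and 132 counts in control and 142, 132 and 135 counts in EFV libraries. Control libraries 1 and 2 were high and control library 3 was as low as the EFV libraries. Without control library 3 the log2 fold change of Scn4b was -0.29, and without control library 2 it was -0.11. Scn4a had a log2 fold change of -0.10 (SE 0.076), and Scn3b -0.08 (SE 0.063). On the other side, Cacng8 had 0.10 (SE 0.200) on only 39 to 51 counts, and Cacnb3 0.07 (SE 0.061).

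The photoreceptor channel genes had small log2 fold changes: 0.02 for Cacna1f (SE 0.051), 0.02 for Cacnb2 (SE 0.063) and -0.06 for Cacna2d4 (SE 0.053). The 95% intervals as folds were 0.939 to 1.10 for Cacna1f, 0.917 to 1.12 for Cacnb2 and 0.883 to 1.04 for Cacna2d4. Cacna1h, Cacng7 and Scn8a, the most abundant members of their classes, had log2 fold changes of -0.02, -0.05 and -0.03. Cacna2d3 (0.07, SE 0.109) depended on control library 1: without it the log2 fold change was 0.23 at an edgeR p of 0.00401, and adjusted p 1.00. Cacna1g (0.07, SE 0.049) passed the limits of the study without EFV library 1, with a log2 fold change of 0.11 and an unadjusted p of 0.0367. Cacna2d3 and Cacna1g were singled out after their values were seen.

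**Figure D4:**
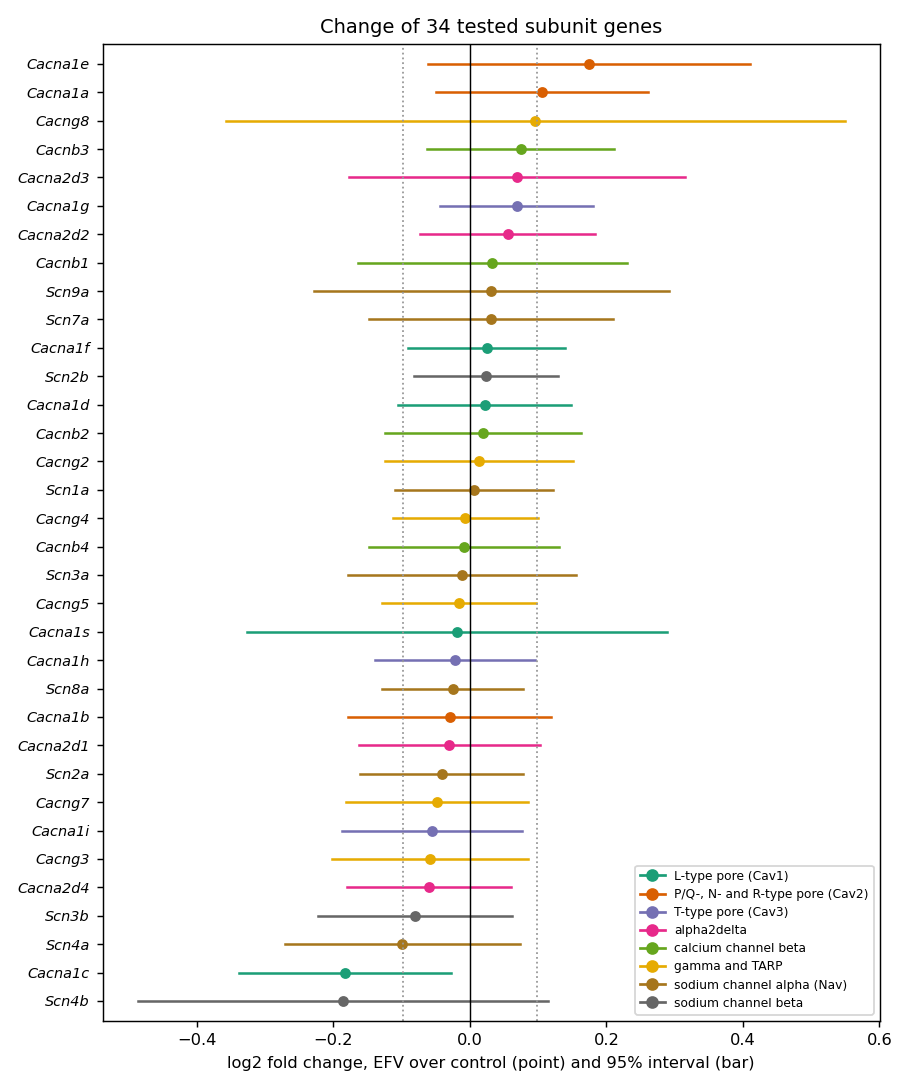
Log2 fold change of EFV over control for 34 of the 36 tested genes (points, colored by class) with 95% intervals (bars) and dotted lines at the study's 7% limit in either direction. Of the intervals shown, only that of Cacna1c leaves out 0.

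For each gene alone, and without adjustment, the intervals bound the change in RNA of the whole tissue. They do not bound a change within a single cell type. The 95% interval lay within a 1.5-fold change in either direction for all 36 members and within a 1.2-fold change for 27 of them. Over the 36 members the median log2 fold change was -0.01, with 17 above and 19 below 0, and over all genes tested it was 0.00. The range ran from -0.19 to 0.17. A change smaller than this 7% limit was estimated for 30 of 36 members (83.3%) and for 69.2% of all genes. Among the 13126 genes whose mean FPKM lay in the range of the members, 74.3% were under that limit. Of the 18 members with longer transcripts 77.8% were under it, against 80.1% of the 1996 genes in their length range. For the 18 shorter members it was 88.9%, against 70.8% of the 11096 genes in their length range. By type, the median was 0.00 over 24 calcium channel subunits (12 above and 12 below 0) and -0.02 over 12 sodium channel subunits (5 above and 7 below). Scaling by total counts alone moved the members' median to 0.01, with 20 of 36 above 0, and that of all genes to 0.02.

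**Figure D5:**
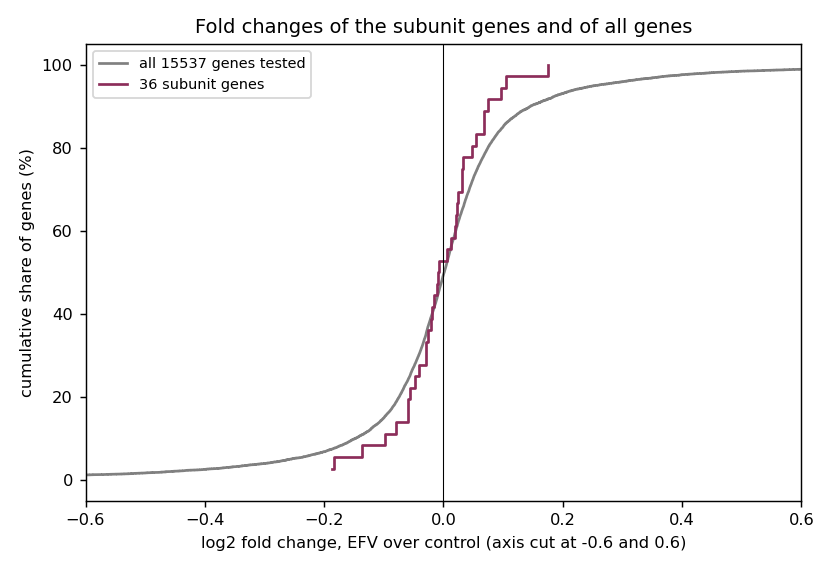
Cumulative share of genes by log2 fold change, EFV over control, for the 36 subunit genes (purple) and all 15537 genes tested (grey), the axis being cut at -0.6 and 0.6. Both curves cross 0 near their middle, with medians of -0.01 and 0.00.

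A Poisson model, the distribution behind the limits of the study, has no term for variation among pools. It called 3 of 36 members at these limits (8.33%), Cacna1a, Cacna1c and Cacna1e, against 2305 of 15537 genes (14.8%). The members' share was below that of all genes, and the calls for Cacna1a and Cacna1e did not hold under edgeR, whose test includes that variation.

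Long transcripts were looked at apart, because many of these genes are long. The median listed length of the tested members was 5998 bases against 3098 for all genes tested. The 18 longer members had a median log2 fold change of -0.01 and the 18 shorter ones of 0.00. All 1996 tested genes in the length range of the longer members had a median of 0.01.

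Proteins that bind or balance these channels were read from 3 lists. Of 22 calcium channel partners, 21 were tested (Rem1 was below the count minimum), with 11 above and 10 below 0, and 1 lower past the limits of the study. That gene was Calm2, which encodes calmodulin, the calcium sensor bound to pores of both channel families. It had 314.8, 311.4 and 304.6 FPKM in control and 291.6, 293.1 and 295.7 FPKM in EFV libraries, without overlap. Its log2 fold change was -0.10 (SE 0.041), with an unadjusted edgeR p of 0.0409 and an adjusted p of 0.999. Calm2 is also among the genes the study selected on these samples, so its direction here is not independent evidence. Calm3, which encodes the same protein, had a log2 fold change of -0.06. Cabp4, the calcium-binding partner of Cav1.4 at the photoreceptor synapse, had 159.2 ± 1.64 FPKM in control and 161.7 ± 1.89 FPKM in EFV libraries (SD, n = 3 each).

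Of 14 sodium channel partners, all tested, 4 were above and 10 below 0 and 0 passed the limits of the study, with a median log2 fold change of -0.03. Ank2, an ankyrin that anchors channels to the cytoskeleton, was the most abundant, at 41.8 ± 1.51 FPKM in control and 42.7 ± 1.86 FPKM in EFV libraries (SD, n = 3 each). Nalcn, the sodium leak channel, had a log2 fold change of -0.12 (SE 0.055) and an unadjusted edgeR p of 0.0588. Of 10 calcium extrusion genes, 6 were above and 4 below 0 and 0 passed the limits. Slc24a1, the sodium, calcium and potassium exchanger of rod outer segments, led this list with 259.8 ± 9.11 FPKM in control and 264.0 ± 16.7 FPKM in EFV libraries (SD, n = 3 each).

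Markers of the neurons that use these channels, and of Müller glia, were read as well. Past the limits of the study were 0 of 7 rod, 0 of 6 cone, 0 of 7 bipolar, 0 of 7 amacrine, 0 of 8 ganglion, 0 of 4 horizontal and 0 of 5 Müller cell markers. The rod markers summed to 24801 to 25545 FPKM in control and 23809 to 25261 FPKM in EFV libraries, and the ganglion cell markers to 445.9 to 489.1 and 452.9 to 496.6 FPKM. RPE markers had 2 of 8 higher past the limits and all 9 tested lens markers were lower, the latter with control library 3 apart from the rest. Without control library 3 the count of members past the limits was again 1, Cacna1c, at a log2 fold change of -0.20 and an unadjusted edgeR p of 0.0385.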

How the data were processed

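The authors filtered the reads and, by the tools listed in the labels, used HISAT2 2.0.4, Bowtie2 2.2.5 and RSEM 1.2.12 with the mouse genome mm10. Expected counts per gene and FPKM values were deposited by the authors for each of the 6 libraries, with a transcript length that RSEM weights by abundance. The smallest FPKM listed is 0.01, and a gene not listed in a library was taken as 0. The annotation release and strandedness are not given in the sources used here. The paper describes random priming, the labels poly-A selection.

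Expected counts were rounded, and genes reaching 10 counts in 3 or more libraries were compared in edgeR 4.0.16 under R 4.3.3 (quasi-likelihood, TMM scaling, group only, two-sided), with Benjamini-Hochberg adjustment over 15537 genes. The common biological coefficient of variation was 0.0983. Limits of the study are an unadjusted p of 0.05 and a difference of 7% (the higher group over the lower). Class sums of FPKM were compared by exact permutation. Sequences and lengths come from GENCODE M21 on mm10, matched by symbol and RefSeq identifier, for all 38 members. The fits were tested on simulated data with planted changes of at least 1.5-fold in either direction. Changes near the 7% limit were not simulated.

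Members and lists were chosen with earlier results of these data known. Genes named are the most abundant of each class, those with an unadjusted p of at most 0.05, the 2 highest and 2 lowest fold changes, and the most abundant of each partner list. Alternatives were other scalings, filters, DESeq2 1.42.0, limma 3.58.1 on log2(FPKM + 0.1) and log2(FPKM + 1), a Poisson model, a replicate block, a length offset, genes with Entrez identifiers only, and leaving out each library. A few genes, and the class sum and sequences that rest on them, are not reported here.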

Additional observations from a re-analysis of the deposited data

How the results depend on the processing

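The 1 member past the limits of the study became 0 with DESeq2, with limma on log2(FPKM + 0.1) and with limma on log2(FPKM + 1), and 3 with the Poisson model, which also called 4 members (11.1%) and 2042 genes (13.1%) at an adjusted p of 0.05. Over all genes, 269 (1.73%) passed the limits with DESeq2, and 489 (3.15%) and 494 (3.18%) with limma. Those 4 were Cacna1a, Cacna1c, Cacna1g and Cacna2d4, with log2 fold changes of 0.11, -0.18, 0.07 and -0.06. The count remained 1 under the other scalings, filters, the length offset and Entrez genes only. Over all genes, these settings put from 2.88% (total-count scaling) to 3.04% (length offset) past the limits. Leaving out 1 library gave 0 to 1 members past the limits (Cacna2d3 without control library 1, Cacna1e without control library 2, Cacna1c without control library 3 or EFV library 2, Cacna1g without EFV library 1, 0 without EFV library 3) and 0 at an adjusted p of 0.05, with 389 (2.52%) to 576 (3.73%) genes past the limits. The members' median log2 fold change was 0.0081 with total-count scaling, 0.014 and 0.011 with limma at pseudocounts of 0.1 and 1, and between -0.015 and 0.0079 when 1 library was left out. Total-count scaling also moved the share of lower genes among all past the limits from 51.2% to 35.6%, and limma moved it to 39.3% and 39.9%.

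Without 1 library the log2 fold change ranged from -0.046 to 0.066 for Cacnb2, -0.056 to 0.023 for Cacna1h and -0.012 to 0.23 for Cacna2d3. The difference in summed FPKM, EFV minus control, ranged from -1.80 to 4.91 for alpha2delta, -4.72 to 1.14 for gamma and TARP and -0.133 to 1.26 for sodium channel alpha. It kept its sign in the L-type (0.110 to 4.37), P/Q-, N- and R-type (0.0333 to 1.58), T-type (0.135 to 1.55) and calcium channel beta (1.43 to 3.71) classes. Same-numbered libraries correlated at 0.125, 0.0832 and 0.0992 in their deviations, which did not establish pairs, although each library correlated best with its own number in the other group. With the replicate number as a block the count of members past the limits was 1, with 514 genes in all. At 0 to 9 counts per library, Cacng1 and Scn11a could not be compared.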
